A study of Mus musculus with 6 samples.

Results

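The Ms4a genes encode tetraspan membrane proteins of blood and immune cells, and 7 of them were examined in sorted mouse cardiac macrophages with and without Tet2: Ms4a4a, Ms4a4b, Ms4a4c, Ms4a6b, Ms4a6c, Ms4a6d and Ms4a7. They are 7 of the 19 Ms4a genes in the GENCODE mouse annotation and of 35865 genes to which the transcripts of the libraries were assigned. The set was chosen by the measured difference of Ms4a4c between the genotypes, one of the larger rises in Tet2 KO, and holds 6 of its relatives, picked with earlier results of these data known. Differences of the 7 genes between the genotypes are therefore a description. Where the fit over all genes called one of them, the call is counted but is no independent test, with or without a library or under another scaling. There were 3 Tet2 KO libraries (Tet2-/-) and 3 Tet2 WT libraries (Tet2+/+), all of the C57BL/6J strain. The macrophages were sorted out of digested hearts and derived from donor haematopoietic progenitors that lacked Tet2 or carried it. By the title of the study the hosts were not conditioned, so they kept blood-forming cells of their own. The allele, the age of the animals and the sort gate were not given in the sources used here. No label ties a library to an animal of its own, and the p-values below cover variation among the libraries at hand, part of which may be technical.

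MS4A proteins act as receptor subunits, signalling adaptors and organisers of membrane receptors. The best known are CD20 of B cells, encoded by Ms4a1, and the beta chain of the high-affinity IgE receptor of mast cells, encoded by Ms4a2. MS4A4A is a macrophage surface protein that associates with the beta-glucan receptor Dectin-1, and variation at the human locus is linked to the level of soluble TREM2. The product of Tet2 is an enzyme that oxidises methylated cytosine, a step in DNA demethylation.

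Depth was 37349505 to 55771087 estimated counts per library. Tet2 itself was at 78.2 to 82.6 CPM (counts scaled to library size) in Tet2 KO, against 57.5 to 76.1 CPM in Tet2 WT, and since the deleted part of the gene is not given, this does not check the labels. Macrophage markers were abundant: 18 pan-macrophage markers, among them Adgre1, Csf1r and Lyz2, summed to 39740, 32822 and 36472 CPM in Tet2 KO, against 21016, 28544 and 24765 CPM in Tet2 WT. Lyz2 was the largest part of this sum, at a mean TMM-normalized level of 21952 CPM in Tet2 KO, against 13659 CPM in Tet2 WT. Fibroblast markers were also present, at 4245, 2265 and 3990 CPM over 18 genes in Tet2 KO, against 32759, 17504 and 27962 CPM in Tet2 WT. Neither sum overlapped between the genotypes (exact permutation test, two-sided p = 0.1 each, the smallest that 3 against 3 libraries can give). In bulk libraries, fewer cells of a type and less RNA per cell cannot be told apart. Apart from Ms4a4b, the genes of the set differed in CPM between the same groups of libraries as these 2 marker sums. Within a genotype, the libraries did not rank alike for every gene and the sums. The part of the marker sums in the Ms4a differences was not tested, and levels relative to the macrophage markers are given below.

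The 7 genes lie together on chromosome 19 of GRCm38, between 11321039 and 11604849, a span of 284 kb inside the 679 kb that hold all 19 Ms4a genes. Ms4a4a, Ms4a4c, Ms4a4b, Ms4a6c and Ms4a6b follow each other on the plus strand, while Ms4a7 and Ms4a6d are on the minus strand at either end. Ms4a4d lies between Ms4a6b and Ms4a6d and is not one of the 7. Ms4a4c (ENSMUSG00000024675.19) spans 11404770 to 11427246, and Ms4a7 (ENSMUSG00000024672.11) spans 11321039 to 11336146. RefSeq promoter windows (GRCm38.p6, 250 bases before and 50 from the annotated start) were found for 6 of the 7 genes, with 2 windows for Ms4a7. The stretches shown are those of Ms4a4c, which had the largest fold difference, its neighbour and closest relative by promoter Ms4a4b, which had the smallest, and Ms4a7, the gene with the highest mean level. Each ends 10 bases before the RefSeq start and reads 5′ to 3′ on the gene's strand. The RefSeq start of Ms4a4c differs from the GENCODE one, so its stretch lies inside the GENCODE span given above. The window of Ms4a6b also lies inside the GENCODE span of its gene. Positions below count from the RefSeq start. In Ms4a4c and Ms4a4b the capitals mark the PU.1 core GAGGAA, the binding letters of a transcription factor of myeloid cells, and in Ms4a7 they mark CpG dinucleotides, the sites at which DNA is methylated.
Ms4a4c, chr19:11407411-11407650, plus strand: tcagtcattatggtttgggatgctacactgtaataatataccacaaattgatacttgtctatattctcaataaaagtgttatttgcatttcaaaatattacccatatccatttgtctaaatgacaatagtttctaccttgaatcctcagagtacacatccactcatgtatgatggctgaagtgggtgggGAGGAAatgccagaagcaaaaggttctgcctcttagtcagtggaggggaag
Ms4a4b, chr19:11443308-11443547, plus strand: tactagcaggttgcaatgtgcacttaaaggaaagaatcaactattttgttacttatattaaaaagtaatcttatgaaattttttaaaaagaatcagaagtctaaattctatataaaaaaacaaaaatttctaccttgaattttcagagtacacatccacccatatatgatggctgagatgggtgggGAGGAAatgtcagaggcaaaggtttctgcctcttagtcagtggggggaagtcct
Ms4a7, chr19:11336157-11336396, minus strand: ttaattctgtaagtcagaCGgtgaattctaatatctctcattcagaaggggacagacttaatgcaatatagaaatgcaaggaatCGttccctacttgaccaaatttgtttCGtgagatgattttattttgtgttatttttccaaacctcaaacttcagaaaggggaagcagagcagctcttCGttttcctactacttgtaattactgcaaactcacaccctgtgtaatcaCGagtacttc

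Ms4a4c and Ms4a4b had closely related upstream sequence: over the 250 bases before the start, 183 of 232 aligned positions were identical (78.9%), and both held GAGGAA at nearly the same place, from -61 to -56 in Ms4a4c and from -64 to -59 in Ms4a4b. Ms4a6b and Ms4a6c formed a second such pair, with 149 of 175 aligned positions identical (85.1%) and a longest shared run of 48 bases. On either strand, GAGGAA stood in 28.3% of all 32851 promoter windows of the table (mouse chromosome 18 left out). Ms4a7 held it after its start, from 44 to 49. The interferon-stimulated response element (GAAA, any 2 bases, GAAA) and the gamma-activated site TTCNNNGAA, which stood in 3.44% and 8.30% of all windows, had no match in the windows of the 6 genes that have one. CpG counts per window of 300 bases were 0 for Ms4a4c, Ms4a4b and Ms4a6b, 3 for Ms4a4a, 4 for Ms4a6c, and 6 and 1 for the 2 Ms4a7 windows, against a median of 7 over all windows. These matches describe letters and not bound sites.

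Of the 7 genes, 5 were abundant transcripts of these macrophages and 2 were not. On the TPM scale, which corrects for transcript length and library size and so allows genes to be compared, the 7 genes summed to 1831, 1615 and 2131 TPM in Tet2 KO, against 884, 1248 and 1224 TPM in Tet2 WT. The lowest Tet2 KO sum was above the highest Tet2 WT sum. The order of mean levels was the same in both genotypes: Ms4a7, Ms4a4a, Ms4a6c, Ms4a6b, Ms4a6d, Ms4a4c and Ms4a4b. In both genotypes the ranges of neighbouring genes overlapped from Ms4a7 down to Ms4a6b. Ms4a6b and Ms4a6d overlapped in Tet2 WT and not in Tet2 KO. Ms4a6d stood clear of Ms4a4c, and Ms4a4c of Ms4a4b, in each library.

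**Figure D1:**
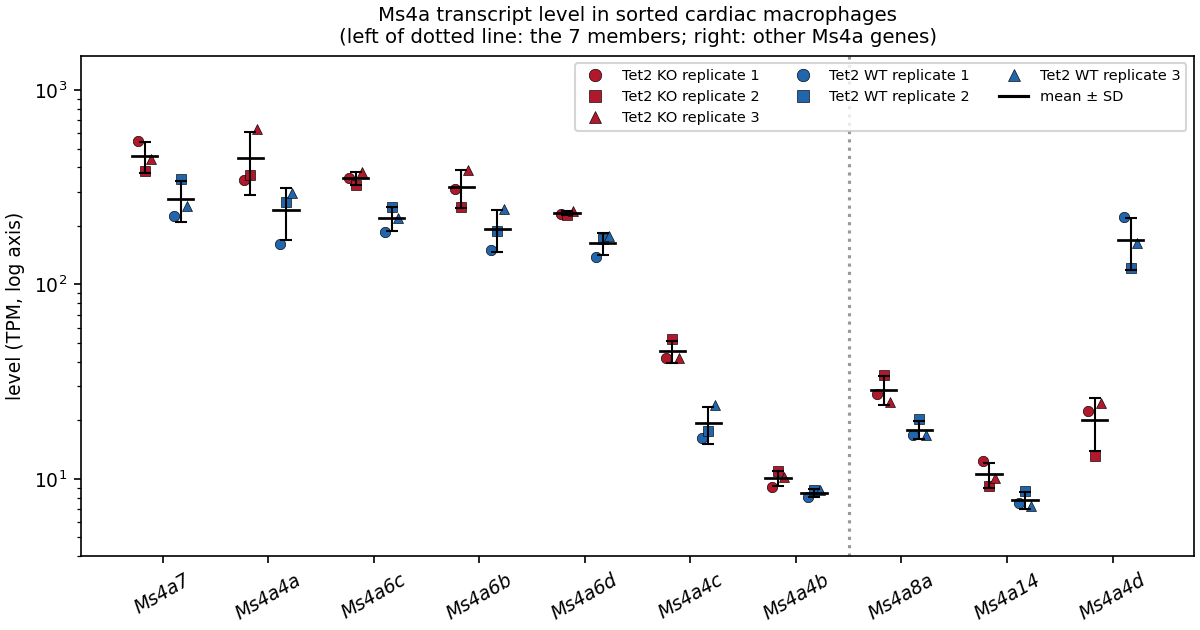
TPM of the 7 Ms4a genes and of 3 other Ms4a genes in each library, on a log axis, with Tet2 KO in red on the left and Tet2 WT in blue on the right of each pair (bars are mean ± SD, n = 3 each). Ms4a7 leads at a mean of 456 TPM in Tet2 KO, against 276 TPM in Tet2 WT, and Ms4a4d runs the other way from the rest, at 19.98 against 169 TPM.

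Ms4a7, a marker of tissue macrophages in several organs, stood at 546, 382 and 441 TPM in Tet2 KO, against 224, 349 and 255 TPM in Tet2 WT. The 2 groups did not overlap, but Tet2 KO replicate 2 and Tet2 WT replicate 2 came close to each other. The log2 fold change of its counts, Tet2 KO over Tet2 WT, was 0.87 ± 0.19 (SE). Ms4a4a, the Dectin-1 partner, varied most among the abundant genes, at 343, 366 and 631 TPM in Tet2 KO, against 161, 266 and 296 TPM in Tet2 WT. Tet2 KO replicate 3 was far above the other Tet2 KO libraries, and Tet2 WT replicate 1 below the other Tet2 WT libraries. Its log2 fold change was 1.06 ± 0.28, and it was 0.74 ± 0.24 without Tet2 KO replicate 3.

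Among the 3 Ms4a6 genes, the log2 fold changes ran from 0.68 to 0.87. Ms4a6c was at 351, 325 and 379 TPM in Tet2 KO, against 187, 248.8 and 220 TPM in Tet2 WT (log2 fold change of counts 0.83 ± 0.14). Ms4a6b was at 309, 252 and 389 TPM in Tet2 KO, against 150, 187 and 243 TPM in Tet2 WT (0.87 ± 0.19). Ms4a6d, whose protein has been described in a complex with the macrophage receptor VSIG4 in mice, was at 231, 227 and 238 TPM in Tet2 KO, against 139, 170 and 178 TPM in Tet2 WT (0.68 ± 0.13). None of the 3 overlapped between the genotypes in TPM, although for Ms4a6b Tet2 KO replicate 2 and Tet2 WT replicate 3 were 252 and 243 TPM. The share of all genes that do not overlap in TPM was not computed, so nothing is read from this count. Of the 5 abundant genes, Ms4a6d had the smallest spread within Tet2 KO, with an SD of 5.54 TPM.

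Ms4a4c had the largest fold difference of the 7 and a low level. It was at 42.1, 52.2 and 41.8 TPM in Tet2 KO, against 16.3, 17.6 and 24.1 TPM in Tet2 WT, or 1246, 2828 and 2070 estimated counts against 681, 898 and 1050. Its log2 fold change of counts was 1.43 ± 0.21, and its Tet2 KO libraries were all above the highest Tet2 WT library. The value that chose it placed it number 12 among 955 well-expressed protein-coding genes called higher whose libraries did not overlap. Plxnb3 before it and Cnnm3 after it both had log2 fold changes of 1.43. Ms4a4b, known as a membrane adaptor of T cells, was the lowest of the 7, at 9.08, 10.9 and 10.2 TPM in Tet2 KO, against 8.04, 8.72 and 8.73 TPM in Tet2 WT. Its counts were 5.88, 10.1 and 7.51 CPM in Tet2 KO, against 7.12, 7.35 and 7.20 CPM in Tet2 WT, so that the groups overlapped in CPM and not in TPM, and the log2 fold change of counts was 0.12 ± 0.25. Markers of T and NK cells summed to 17.2, 16.1 and 12.4 CPM in Tet2 KO, against 9.46, 18.7 and 17.6 CPM in Tet2 WT over 17 genes. Of those genes 12 stayed under 1 CPM in each library, Cd3e, Cd3g, Trac and Lck among them, and Ncr1 was at 0. The rest, Cd2, Cd3d, Cd4, Cd8a and Klrb1c, exceeded 1 CPM in at least 1 library. Cd2 was at 10.4, 5.76 and 7.51 CPM in Tet2 KO, against 2.27, 7.93 and 8.42 CPM in Tet2 WT, near the level of Ms4a4b. Cd3d was at 2.91, 3.29 and 2.18 CPM in Tet2 KO, against 3.05, 3.79 and 2.73 CPM in Tet2 WT. The part of such cells in Ms4a4b was not tested.

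All 7 genes passed the filter on low counts, and 6 of the 7 were called higher in Tet2 KO (edgeR quasi-likelihood test, adjusted p under 0.05), Ms4a4b being the exception. The same rule called 6.11% of 16386 tested genes higher, and since the contrast took part in choosing the genes, nothing is read from this count. The libraries of the 2 genotypes did not overlap in CPM for the same 6, as for 16.4% of tested genes (34.5% in either direction). The median log2 fold change of the 7 was 0.87, beside 0.00 over all tested genes and 0.74 over the 18 pan-macrophage markers, of which 14 were higher and 0 lower. Single libraries decided some of these calls. Without Tet2 KO replicate 3, Ms4a4a and Ms4a6b were not called, at log2 fold changes of 0.74 ± 0.24 and 0.70 ± 0.20. Without Tet2 WT replicate 1, Ms4a4a and Ms4a7 were not called, at 0.84 ± 0.26 and 0.76 ± 0.20. Ms4a4a was not called without Tet2 WT replicate 2 either (1.17 ± 0.34), nor Ms4a7 without Tet2 WT replicate 3 (0.81 ± 0.23). Leaving out both libraries numbered 1 left 4 of the 7 called, without Ms4a6b (0.76 ± 0.21) and Ms4a7 (0.61 ± 0.20).

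Measured against the macrophage markers of the same library, the differences between the genotypes were smaller for the 6 genes other than Ms4a4b, and that of Ms4a4c was the largest of these. The measure is log2(CPM + 0.5) of the gene minus the mean of the same quantity over the 18 pan-macrophage markers, so a value of 0 is the level of an average marker. Ms4a4c was at -4.48, -3.77 and -4.34 in Tet2 KO, against -4.94, -5.10 and -4.63 in Tet2 WT. The groups did not overlap, and their means differed by 0.70. Ms4a6c was at -1.40, -1.29 and -1.30 in Tet2 KO, against -1.47, -1.45 and -1.48 in Tet2 WT, also without overlap and with a difference of 0.14. The other 5 overlapped between the genotypes. The share of all tested genes that overlap on this measure was not computed, so nothing is read from these counts. Ms4a7, Ms4a6b and Ms4a4a differed by 0.19, 0.17 and 0.35, and Ms4a6d by -0.01. Ms4a4b was lower in Tet2 KO on this measure, by a difference of -0.62, with -6.99, -6.15 and -6.66 in Tet2 KO, against -5.77, -6.18 and -6.00 in Tet2 WT. When the libraries in the fit over all genes were scaled to the summed macrophage markers, the median of all genes moved to -0.71 on the log2 scale. Ms4a4c then had a log2 fold change of 0.75 ± 0.27.

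**Figure D2:**
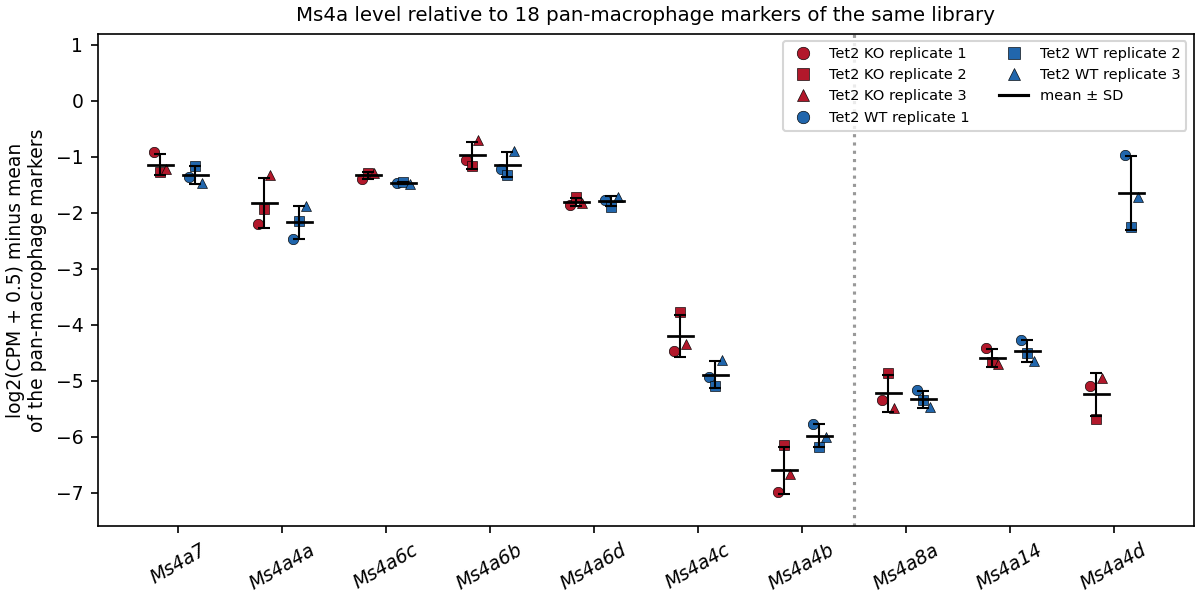
Level of the 7 Ms4a genes and of 3 other Ms4a genes relative to 18 pan-macrophage markers of the same library, in log2 units, with Tet2 KO on the left and Tet2 WT on the right of each pair (bars are mean ± SD, n = 3 each). The means of Ms4a4c and Ms4a6c differ by 0.70 and 0.14 between the genotypes, and Ms4a6d lies at -1.80 in Tet2 KO, against -1.79 in Tet2 WT.

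As a share of the summed TPM, 6 of the 7 genes overlapped between the genotypes, a count that has no counterpart over all genes. The exception was Ms4a4b, at 0.496%, 0.677% and 0.478% in Tet2 KO, against 0.909%, 0.699% and 0.713% in Tet2 WT. Ms4a7 made up 24.7% ± 4.64 of the sum in Tet2 KO, against 24.7% ± 3.62 in Tet2 WT (SD, n = 3 each), and Ms4a6b 16.9% ± 1.35 and 17.3% ± 2.43. Ms4a4c made up 2.497% ± 0.658 in Tet2 KO, against 1.74% ± 0.293 in Tet2 WT. Its share was highest in Tet2 KO replicate 2, at 3.23%, while in Tet2 KO replicate 3 it was 1.96%, below the 1.97% of Tet2 WT replicate 3.

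The profiles nearest to Ms4a4c over the 6 libraries are a description, since the distance includes the genotype difference that chose the gene. Among 10972 protein-coding genes (log2 CPM 2 or more on average), likeness was measured as the root mean square difference of log2(CPM + 0.5) after each gene's mean over the 6 libraries was subtracted. The nearest to Ms4a4c were Oas2, an interferon-induced 2′-5′ oligoadenylate synthetase, at a distance of 0.16, the interferon-inducible Ifi44 at 0.20, and Osm, which encodes the cytokine oncostatin M, at 0.21. How many of the 10972 genes are interferon-induced was not counted, so nothing is read from the kind of gene found. Ms4a4c and its 3 nearest genes were highest in Tet2 KO replicate 2, a likeness that the distance selects for. Ms4a7, the gene with the highest mean TPM, had nearer neighbours: Emb, an immunoglobulin-superfamily membrane glycoprotein, at 0.037, Arhgap9 at 0.054 and Dennd1c at 0.063. Ms4a7 and these 3 were highest in Tet2 KO replicate 1 and lowest in Tet2 WT replicate 1, again a likeness that the distance selects for. Among the 7, the closest pair was Ms4a6c and Ms4a6d at 0.10, and the most distant Ms4a4b and Ms4a4c at 0.68, the pair with the related upstream sequence shown above. The profiles share the 6 libraries, their depth and the split between genotypes.

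**Figure D3:**
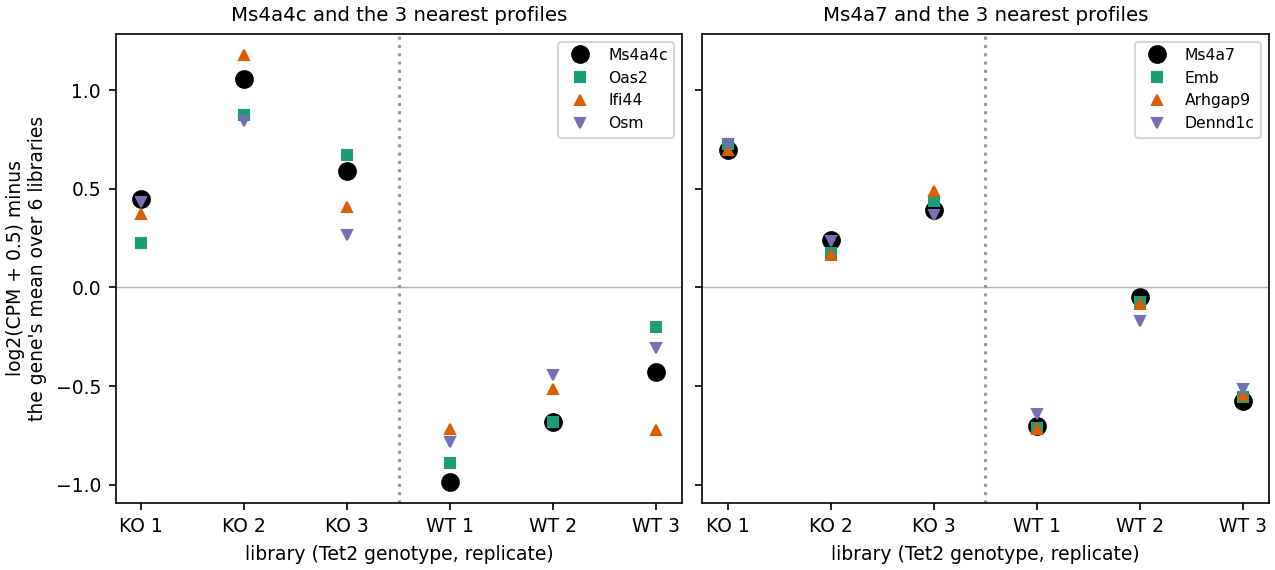
Level of Ms4a4c (left panel) and Ms4a7 (right panel) in each library with the 3 protein-coding genes of nearest profile, as log2(CPM + 0.5) minus each gene's mean over the 6 libraries, with the Tet2 KO libraries left of the dotted line. The 3 genes nearest to Ms4a4c lie at distances from 0.16 to 0.21 and those nearest to Ms4a7 from 0.037 to 0.063.

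Several of the genes were read through more than 1 annotated transcript, and the shares overlapped between the genotypes, apart from the exceptions given next. The retained-intron ENSMUST00000142135.1 of Ms4a4b held 2.17% to 6.75% in Tet2 KO, against 9.68% to 10.1% in Tet2 WT. The minor ENSMUST00000155669.7 of Ms4a6d held 0% to 0.073% in Tet2 KO, against 0.154% to 0.426% in Tet2 WT. It had 0, 0 and 2.98 estimated counts in Tet2 KO, against 9.01, 4.49 and 7.74 in Tet2 WT, too few to read. How many transcripts of all genes do not overlap in share was not counted, so nothing is read from these exceptions. For Ms4a7, ENSMUST00000067532.10 with 7 exons carried 60.9% ± 3.70 of the TPM in Tet2 KO, against 58.8% ± 2.06 in Tet2 WT (SD, n = 3 each), and ENSMUST00000056035.8 with 6 exons carried 35.2% ± 3.41 and 36.6% ± 3.07. For Ms4a6c, the retained-intron transcript ENSMUST00000187462.1 held 44.1% ± 2.25 of the TPM in Tet2 KO, against 42.9% ± 2.37 in Tet2 WT, the rest being the protein-coding transcript. For Ms4a6b the protein-coding ENSMUST00000025580.9 held 79.1% ± 1.23 and 77.7% ± 3.77. Ms4a4c was mostly ENSMUST00000072729.9, at 72.5% ± 8.78 in Tet2 KO, against 71.6% ± 4.53 in Tet2 WT. Ms4a6d was nearly all 1 transcript, and Ms4a4a has 1 transcript in the files.

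Ms4a4b stood apart, because its TPM came mostly from transcripts that are not annotated as coding. The retained-intron transcript ENSMUST00000152242.7 held 56.8% ± 12.97 of its TPM in Tet2 KO, against 54.8% ± 9.77 in Tet2 WT. The full-length protein-coding ENSMUST00000035258.9 held 8.71% ± 2.11 in Tet2 KO, against 11.2% ± 0.989 in Tet2 WT, or 0.695, 1.22 and 0.746 TPM against 0.934, 0.877 and 1.04 TPM. The level of Ms4a4b in TPM is thus mostly not a level of its coding transcript. In estimated counts, that transcript, of 4750 bases, held more than any other of the gene in each library. It had 86.6, 234 and 139 counts in Tet2 KO, against 162, 163 and 176 in Tet2 WT. The gene as a whole had 204, 521 and 392 counts in Tet2 KO, against 373, 409 and 391 in Tet2 WT. Kallisto divides reads between transcripts that share sequence, and relatives in the cluster do. Of the distinct 31-base words in the transcripts of each gene, 21.3% of those of Ms4a6c, 17.1% of Ms4a4c, 7.84% of Ms4a6b, 6.77% of Ms4a6d, 5.39% of Ms4a4b and 1.33% of Ms4a7 also stood in transcripts of other genes, and 0 of those of Ms4a4a. For Ms4a4c the main sharer was Ms4a4b (12.99%), and for Ms4a6c it was Ms4a6b (13.9%). The other genes were not all relatives: for Ms4a7 the main sharer was Grk4 (0.356%), among 2441 genes.

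The rest of the family, which the rule does not name, was tested. Which relatives of Ms4a4c to leave out was also decided with earlier results known. Of the other 12 Ms4a genes, 5 passed the filter on low counts, and 2 of these rose and 1 fell, where the fit called 16.2% of all tested genes in either direction. The median log2 fold change of the 5 was 0.03. Ms4a4d fell most: it was at 22.3, 13.1 and 24.6 TPM in Tet2 KO, against 223, 122 and 163 TPM in Tet2 WT. The groups were far apart, at a log2 fold change of -2.93 ± 0.28 (edgeR quasi-likelihood test, adjusted p = 0.000249), and the call stood in each of the alternatives tried. The same libraries ranked lowest and highest for the fibroblast marker sum as for Ms4a4d, Tet2 KO replicate 2 at the bottom and Tet2 WT replicate 1 at the top, and the median of the 18 fibroblast markers was -3.01. The part of fibroblast RNA in Ms4a4d was not tested.

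Ms4a8a, described in alternatively activated mouse macrophages, rose, at 27.4, 34.2 and 24.7 TPM in Tet2 KO against 16.9, 20.2 and 16.7 TPM in Tet2 WT (log2 fold change 0.84 ± 0.20, edgeR adjusted p = 0.0182). Ms4a14 rose to 12.3, 9.23 and 10.05 TPM in Tet2 KO, against 7.502, 8.62 and 7.21 TPM in Tet2 WT (0.59 ± 0.16, edgeR adjusted p = 0.0345). The Tet2 KO libraries were above the Tet2 WT libraries for both, by a small margin for Ms4a14. Ms4a8a lost its call without Tet2 WT replicate 1 or 3 (edgeR adjusted p = 0.0779 and 0.0686). Ms4a14 lost it without Tet2 KO replicate 1 or 3 and without Tet2 WT replicate 1 or 3 (edgeR adjusted p from 0.0765 to 0.111). Ms4a4d alone of the 5 was called when replicate 1 or 3 of Tet2 WT, or both libraries numbered 1, were left out. Relative to the macrophage markers, Ms4a8a differed by 0.11 and Ms4a14 by -0.12. Ms4a12 and Ms4a1 passed the filter at under 1 CPM per library and were not called (edgeR adjusted p = 0.615 and 0.985), and Ms4a1, the B cell gene for CD20, averaged 0.232 ± 0.156 CPM in Tet2 KO, against 0.226 ± 0.0976 CPM in Tet2 WT (SD, n = 3 each). The other 7, Ms4a2 among them, did not pass the filter.

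**Figure D4:**
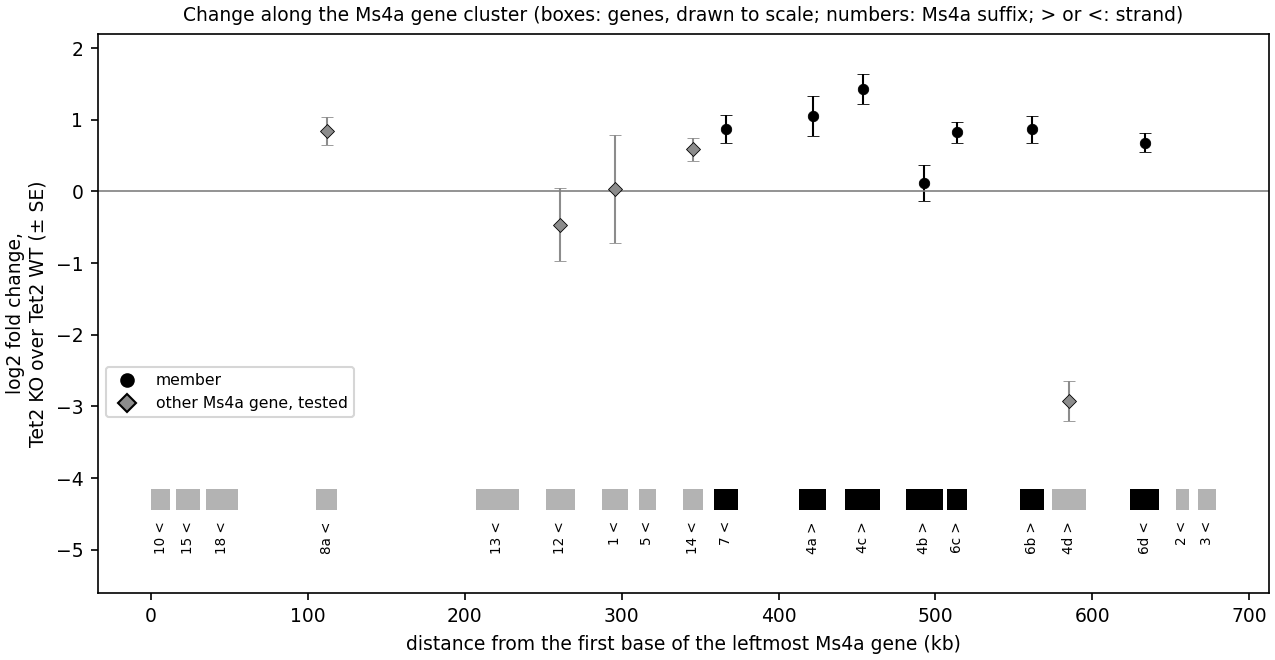
Log2 fold change of counts, Tet2 KO over Tet2 WT, of the 12 Ms4a genes that were tested, against their place in the cluster in kb from its first base (points with SE; boxes are the 19 genes to scale, black for the 7 members and grey for the others). Ms4a4d, at -2.93, lies between Ms4a6b at 0.87 and Ms4a6d at 0.68.

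Tmem176a and Tmem176b, tetraspan relatives of the Ms4a genes encoded elsewhere in the genome, also rose. Tmem176b was at 1591, 1529 and 1362 TPM in Tet2 KO, against 963, 1171 and 1007 TPM in Tet2 WT, or 0.68 ± 0.15 on the log2 scale (edgeR adjusted p = 0.0131), and Tmem176a had 0.67 ± 0.15 (edgeR adjusted p = 0.0134). Both were above Ms4a7 in TPM in each library. Both lost their calls without Tet2 WT replicate 1 (edgeR adjusted p = 0.0510 for Tmem176b and 0.0563 for Tmem176a) and without Tet2 WT replicate 3 (0.0584 and 0.0601).

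Genes of 5 further lists rose in part: Dectin-1 signalling, TREM2 signalling and shedding, the IgE receptor complex, leukocyte tetraspanins and the type I interferon response. With the Tmem176 pair, 50 different genes were tested, 29 rose and 1 fell, where 6.11% of all tested genes were called higher and 10.1% lower. Of the 29, 14 were genes of the interferon list. The pan-macrophage markers, at a median log2 fold change of 0.74, moved in the same direction as these lists. Their part in the counts below was not tested. The scaling to these markers, given at the end, moves the median of all genes to -0.71 and so cannot decide it. Leaving out Tet2 WT replicate 1 gave 16 calls in place of 30, leaving out Tet2 WT replicate 3 gave 19, and leaving out both libraries numbered 1 gave 12. In the Dectin-1 list 7 of 10 rose and 0 fell, with a median log2 fold change of 0.64, beside 0.00 over all tested genes and 0.74 over the pan-macrophage markers. Scaled to those markers, Clec7a (-0.059), Fcer1g (-0.020), Syk (-0.082) and Prkcd (-0.00043) turned their direction. The members with the smallest p were the phospholipase gene Plcg2 (0.89 ± 0.15), the exchange factor Vav1 (0.93 ± 0.16), the kinase Prkcd (0.69 ± 0.15) and the Fc receptor gamma chain Fcer1g (0.67 ± 0.16). Clec7a, which encodes Dectin-1 itself and is named here after its value was seen, averaged 288 ± 59.2 CPM in Tet2 KO, against 181 ± 23.2 CPM in Tet2 WT (SD, n = 3 each; log2 fold change 0.67 ± 0.17, edgeR adjusted p = 0.0239). Its call was lost when a library was left out in 4 of 6 cases, without replicate 1 or 3 of either genotype (edgeR adjusted p from 0.0558 to 0.0870). Fcer1g lost it without Tet2 WT replicate 1 or 3 (edgeR adjusted p = 0.0684 and 0.0727).

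In the list of TREM2 signalling and shedding, 4 of 8 rose and 0 fell, with a median of 0.56, below the 0.74 of the pan-macrophage markers (6.11% of all tested genes rose). Trem2, the lipid-sensing receptor of macrophages, averaged 50.2 ± 11.0 CPM in Tet2 KO, against 28.6 ± 9.26 CPM in Tet2 WT (SD, n = 3 each; log2 fold change 0.81 ± 0.24, edgeR adjusted p = 0.0487). Apoe, a TREM2 ligand, rose by 0.72 ± 0.19, the kinase Syk by 0.60 ± 0.17, and Plcg2 as above. Trem2 and Apoe each lost their calls when a library was left out in 4 of 6 cases, without replicate 1 or 3 of either genotype (edgeR adjusted p from 0.0846 to 0.161 and from 0.0824 to 0.102). Syk did so without replicate 2 or 3 of Tet2 KO and replicate 1 or 2 of Tet2 WT (0.0693 to 0.1203). The sheddases Adam10 and Adam17 were among the 4 that did not pass.

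In the IgE receptor list 3 of 4 tested genes rose and 0 fell, beside 6.11% higher and 10.1% lower over all tested genes. The median was 0.63, below the 0.74 of the pan-macrophage markers. The genes that rose were Lyn (0.65 ± 0.15), and Fcer1g and Syk, which were already counted in lists above. Lyn lost its call without Tet2 KO replicate 3 (edgeR adjusted p = 0.0586). The kinase Fyn had -0.46 ± 0.16 and did not pass (edgeR adjusted p = 0.0880; called lower without Tet2 WT replicate 2, 0.0147). Fcer1a and Ms4a2, the 2 subunits particular to mast cells and basophils, were under 1 CPM in each library. Of 10 markers of those cells, which include these 2 genes, 7 stayed under 1 CPM in each library. Kit, Gata2 and Hdc did not, and Kit reached 4.13 CPM in Tet2 WT replicate 3.

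Of 10 tetraspanins of leukocytes, a separate family of membrane organisers, 3 rose and 1 fell, with a median of 0.31, beside 6.11% higher and 10.1% lower over all tested genes. Tspan32 (1.05 ± 0.20), Tspan14 (0.62 ± 0.14) and Cd53 (0.64 ± 0.15) rose, and Cd9 fell by 0.63 ± 0.14 on the log2 scale. Cd53 lost its call without replicate 1 or 3 of either genotype (edgeR adjusted p from 0.0567 to 0.0696), and Cd9 without Tet2 KO replicate 3 and Tet2 WT replicate 1 or 3 (0.0577 to 0.0853). In the type I interferon list 14 of 20 rose and 0 fell, with a median of 0.87. Oas1a rose by 1.02 ± 0.14, the transcription factor Irf7 by 1.42 ± 0.19, Ifit3 by 1.11 ± 0.16 and Phf11b by 0.95 ± 0.14. Scaled to the macrophage markers, 0 of the 50 genes of these lists were called higher and 8 lower, beside the shift of -0.71 in the median of all genes.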

How the data were processed

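RNA of 6 libraries was sequenced in pairs of reads. The submitters' processing notes name Trim Galore 0.6.4, kallisto 0.44.0 and the GRCm38 build. Per the file headers, the authors deposited an estimated count, not normalized, and a TPM value for each transcript, with its length. No annotation release is named. Of 118783 transcripts, 116622 (98.2%) were found in GENCODE M21 once versions were dropped, 99.8% of them at the same length. Unmatched ones, left out, took no more than 0.671% of any library. Estimated counts and TPM were summed per gene, and the counts were rounded. The main test was edgeR 4.0.16 (quasi-likelihood, robust, TMM, its expression filter) in R 4.3.3, on genotype alone, Benjamini-Hochberg adjustment over 16386 genes and a threshold of 0.05. Standard errors were derived from each gene's F statistic. Promoters are RefSeq's (GRCm38.p6). CPM is TMM-normalized, except that marker sums use each library's own total. A marker sum was compared over the 20 assignments of labels. Libraries of a genotype differed by a chi-square per gene of at least 69.2. The alternatives were RLE scaling, scaling to pan-macrophage markers, no filter and a stricter one (1 CPM), DESeq2 1.42.0, limma 3.58.1 (voom, log2(TPM + 1), log2(TPM + 0.1)), length-scaled TPM counts, the replicate number as a block and libraries left out. The code was tested on simulated data.

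The members, gene lists and alternatives were chosen with earlier results of these data known. The genes named were the 7, the other tested Ms4a genes, Tet2, up to 4 genes of a list by smallest p and the 3 nearest profiles to Ms4a4c and Ms4a7. Clec7a, Adam10, Adam17 and single markers were named after their values were seen. Counts of called genes are over genes tested, and depth limits what can be seen for the genes under 1 CPM.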

Additional observations from a re-analysis of the deposited data

How the results depend on the processing

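Of 678 values of single genes recomputed under the alternatives, 533 kept their direction and side of the threshold, 117 kept their direction and lost a call, 3 kept it and gained one, and 25 turned their direction. Of those that turned under the pan-macrophage scaling, Ms4a6d, Ms4a14, Tmem176a, Tmem176b, Cd53, Clec7a, Fcer1g, Lyn, Syk, Tspan14 and Prkcd lost a call as well. Libraries scaled to the pan-macrophage markers left 1 of the 7 Ms4a genes, 1 of the other Ms4a genes, 8 genes of the partner lists and 7039 of all genes called (19 higher), against 6, 3, 30 and 2653 (1001 higher). In that fit the log2 fold change was -0.57 for Ms4a4b, -0.021 for Ms4a6d, -0.59 for Ms4a1, -0.13 for Ms4a14, -0.024 for Tmem176a, -0.025 for Tmem176b, -0.58 for Gm8369, -0.38 for Tet2, -0.060 for Cd53, -0.059 for Clec7a, -0.020 for Fcer1g, -0.049 for Lyn, -0.082 for Syk, -0.084 for Tspan14 and -0.00043 for Prkcd. Without both libraries numbered 1 the 4 counts were 4, 1, 12 and 1188. With single libraries left out they ran from 4 to 6, 1 to 3, 16 to 31 and 1382 to 3141. The count of all genes was 1382 without Tet2 WT replicate 1 and 1750 without Tet2 KO replicate 3. Limma on log2(TPM + 1) and log2(TPM + 0.1) called 4 of the 7 each, 16 genes of the partner lists each, and 2200 and 2245 genes, of which 1852 and 1877 were lower. With single libraries left out, Ms4a4b ran from -0.11 (without Tet2 KO replicate 2) to 0.29, Gm8369 from -0.011 to 0.25 and Ms4a1 from -0.59 to 0.46. Gm8369 had -0.011 without Tet2 KO replicate 1 and -0.13 without both libraries numbered 1. Ms4a1, at under 1 CPM, had -0.13 with voom, -0.012 and -0.080 with limma on TPM, -0.072 with the replicate block, -0.59 without Tet2 KO replicate 2, -0.26 without Tet2 WT replicate 1 and -0.28 without both libraries numbered 1. Tet2 was called higher with length-scaled TPM counts (0.43). The log2 fold change of Ms4a4c, which was chosen for it, ran from 0.75 to 1.60. Where a value turned or a call was lost, the cause was not tested.

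The replicate numbers were not treated as pairs: deviations of same-numbered libraries correlated at 0.08, 0.17 and 0.06 for numbers 1, 2 and 3, and Tet2 KO replicate 3 correlated best with Tet2 WT replicate 1. With the replicate number as a block, 6 of the 7, 2 of the other Ms4a genes, 26 genes of the partner lists and 2347 genes were called, and of the genes named, Ms4a14, Trem2 and Apoe lost their calls.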

Other observations

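Ms4a3, a gene of granulocyte and monocyte progenitors that did not pass the filter on low counts and was chosen after its values were seen, had 0, 1.19 and 1.01 estimated counts in Tet2 KO, against 5.01, 11.5 and 8.54 in Tet2 WT. These counts are too few for a fold change. Gm8369, a gene between Ms4a6c and Ms4a6b in the cluster, was at 5.35, 3.55 and 4.26 TPM in Tet2 KO, against 2.60, 3.92 and 4.74 TPM in Tet2 WT, and the groups overlapped (log2 fold change of counts 0.12 ± 0.30, edgeR adjusted p = 0.837). Of the 3 protein-coding genes on each side of the cluster, Ccdc86 passed the filter, with 14.8 ± 4.32 CPM in Tet2 KO, against 15.1 ± 0.308 CPM in Tet2 WT (SD, n = 3 each; log2 fold change -0.03 ± 0.23, edgeR adjusted p = 0.959). The other 5, Zp1, Ptgdr2, Oosp1, Oosp2 and Oosp3, did not pass the filter.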
